A study of Mus musculus with 27 samples.

Results

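Transcripts of 8 cardiac ion channel genes were followed in the mouse heart from birth to old age. The genes were taken by symbol, with no threshold on their values, and all 8 were found among the 22855 genes of the count tables. They are Kcnd2 and Kcnd3, Kcnq1 and Kcnh2, Kcnj2 and Kcnj3, and the pacemaker channel genes Hcn2 and Hcn4. The first 6 encode potassium channels, and no sodium channel gene is among the 8, so the sodium channel genes of the tables are given separately for comparison. RNA came from C57Bl/6 mice with no transgene or treatment named in the sample labels, at 5 ages. The design text of the series speaks of myocardial infarction, which the sample labels do not mention. The youngest were taken on postnatal day 1 (P1), the next at 4 and at 14 weeks, and the oldest at 1 year and at 1.5 years. There were 15 whole heart samples, 3 at each age. There were also 12 samples of cardiac fibroblasts sorted for PDGFRα, a receptor at the fibroblast surface, with 3 samples at P1 and at 4 weeks and 2 at each later age. The study's methods give 3 animals at each age. The paper describes the sequenced hearts as those that gave the fibroblasts, but the labels do not state which heart gave which fibroblast sample. Its fibroblasts came from ventricles freed of atria and valves, and whether the atria were part of the whole heart samples is not given in the sources used here.

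The heartbeat is shaped by currents that open and close in a fixed order. Kv4 channels, formed by the Kcnd2 (Kv4.2) and Kcnd3 (Kv4.3) proteins, carry the fast transient outward current of early repolarization, which is large in adult mouse ventricle. Kcnq1 and Kcnh2 (ERG1) form the slow and rapid delayed rectifiers IKs and IKr, the main late repolarizing currents of large mammals and minor ones in the adult mouse. Kcnj2 (Kir2.1) carries the inward rectifier IK1 that sets the resting potential, and Kcnj3 (GIRK1) is a subunit of the acetylcholine-gated channel IKACh, best known from the atria and the sinus node. HCN channels open on hyperpolarization and carry the pacemaker current If, and Hcn4 is the main isoform of the sinus node.

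On mouse build GRCm38 (GENCODE M21), Kcnd2 lies at chr6:21215503-21729805 and Kcnd3 at chr3:105452330-105674002, both on the plus strand. Kcnq1 lies at chr7:143106362-143427042 on the plus strand and Kcnh2 at chr5:24319589-24351604 on the minus strand. Kcnj2 lies at chr11:111066164-111076821, Kcnj3 at chr2:55435970-55598145, Hcn2 at chr10:79716634-79736108 and Hcn4 at chr9:58823412-58863175, all on the plus strand. All 8 are protein-coding. Their exons, merged over transcripts, span 3195 bases in Hcn2 and 4093 in Kcnq1, 4845 in Kcnh2, 5152 in Kcnd2, 5215 in Kcnj3, 5444 in Kcnj2, 6118 in Hcn4 and 9587 in Kcnd3. Kcnj3 shares 1621 exon bases (31.1% of its own) with Gm26794, a noncoding gene on the opposite strand. STAR's gene counts leave out reads that overlap 2 genes unless they are separated by strand, and the strand setting is not given in the sources used here, so the level of Kcnj3 is uncertain in that stretch. Gm26794 itself held between 0 and 2.05 CPM (read counts scaled to a common library size, with TMM factors for library composition) in whole hearts. Kcnq1 shares 121 exon bases (2.96%) with the antisense RNA Kcnq1ot1, and Kcnd3 1.72% with Kcnd3os. The exons of the other 5 shared none of their 65-base windows, the read length, with another annotated gene.

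The sequence ahead of the start site was taken from RefSeq (GRCm38.p6), in which 7 of the 8 genes had an entry, Kcnq1 being the one without. The 250 bases upstream of the listed start are shown for the 4 genes with the firmest rise after birth and for Kcnh2, which did not rise. Capitals mark GGGCGG, the core of the GC box bound by Sp1 family factors, and AGGTCA, a short element bound by many nuclear receptors including those of thyroid hormone, each on either strand.
Hcn2, chr10:79716384-79716633, plus strand: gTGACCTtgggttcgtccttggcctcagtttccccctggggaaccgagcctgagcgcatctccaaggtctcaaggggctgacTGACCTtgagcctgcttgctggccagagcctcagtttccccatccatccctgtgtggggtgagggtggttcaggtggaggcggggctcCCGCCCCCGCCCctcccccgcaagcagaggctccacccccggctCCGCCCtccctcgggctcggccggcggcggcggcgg
Hcn4, chr9:58822699-58822948, plus strand: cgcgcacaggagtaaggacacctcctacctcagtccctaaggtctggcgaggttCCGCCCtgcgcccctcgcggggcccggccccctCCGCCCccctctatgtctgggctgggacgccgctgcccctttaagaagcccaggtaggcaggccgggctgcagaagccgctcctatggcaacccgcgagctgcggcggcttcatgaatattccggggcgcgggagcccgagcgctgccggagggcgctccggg
Kcnd2, chr6:21215096-21215345, plus strand: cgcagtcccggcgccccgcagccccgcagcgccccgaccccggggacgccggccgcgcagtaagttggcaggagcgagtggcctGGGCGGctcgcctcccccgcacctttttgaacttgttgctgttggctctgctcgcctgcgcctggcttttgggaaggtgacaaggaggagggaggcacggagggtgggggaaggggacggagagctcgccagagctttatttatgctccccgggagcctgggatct
Kcnj3, chr2:55435720-55435969, plus strand: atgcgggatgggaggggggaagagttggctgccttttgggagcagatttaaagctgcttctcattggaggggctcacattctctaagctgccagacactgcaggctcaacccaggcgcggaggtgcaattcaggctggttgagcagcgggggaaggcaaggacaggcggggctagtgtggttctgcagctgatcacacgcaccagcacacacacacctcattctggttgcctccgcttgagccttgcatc
Kcnh2, chr5:24329592-24329841, minus strand: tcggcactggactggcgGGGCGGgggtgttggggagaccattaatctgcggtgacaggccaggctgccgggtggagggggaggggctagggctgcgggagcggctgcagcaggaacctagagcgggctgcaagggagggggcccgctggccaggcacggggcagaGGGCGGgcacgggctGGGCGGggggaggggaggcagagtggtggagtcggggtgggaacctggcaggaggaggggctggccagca
GGGCGG was present in 5 of the 7 promoters, Kcnd3 and Kcnj3 being without it, against 32.7% of the 32851 promoters in the table. AGGTCA was found only in that of Hcn2, with 2 copies, against 14% of all promoters. TATAAA (present in 12.4% of promoters) and AGATAA (in 9.99%) were in none of the 7. GC content ran from 58.4% in Kcnj3 to 73.6% in Kcnh2, above the median promoter at 52.4%. A match is a description of the sequence and not a site of binding. The listed starts of Hcn4, Kcnd2 and Kcnd3 lie ahead of the GENCODE gene, and that of Kcnh2 lies within it.

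Total counts ranged from 46091271 to 67984404 in whole hearts and from 54615898 to 76758831 in fibroblasts. Ages were compared with edgeR's quasi-likelihood F test, all ages of a tissue in 1 fit, and genes were called at an adjusted p under 0.05 (Benjamini-Hochberg over the 17995 genes tested in whole hearts and 18759 in fibroblasts). Genes with at least 4000 exon bases took 36.08% to 44.17% of the nuclear counts in the hearts of 1.5 years, below the range of every other age (46.65% to 57.27%). The summed level of 10 cardiomyocyte markers was 35326 to 42395 CPM at P1 and 54863 to 74518 at all later ages. Of the 5 atrial markers Bmp10 was at 0 in 5 of the 15 hearts and Sln in 2, and the sum of the 5 was 653.8 to 1572 CPM at P1 and 67.56 to 510.8 later. Xist was at most 0.570 CPM at 14 weeks and 1 year and at least 6.48 at the other ages, while the Y-linked gene Ddx3y was at most 0.397 at 1.5 years and at least 1.64 elsewhere. For 1.5 years against 14 weeks or P1, and for 14 weeks against 4 weeks, age and sex make-up therefore cannot be told apart. Every heart sample of P1 and of 4 weeks held both genes, but at unlike levels. Xist was at 124.3 to 334.2 CPM at P1 and 6.48 to 140.5 at 4 weeks, and Ddx3y at 4.58 to 26.6 and 1.64 to 33.9. The part of sex make-up in the change between these 2 ages was not tested. Levels of Xist and Ddx3y in fibroblasts are not reported here. Whether any sample pooled animals of both sexes is not given in the sources used here. In tissue samples, fewer cells of a type and less RNA per cell cannot be told apart either.

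Over the 5 ages, 6 of the 8 channel genes changed in whole hearts, against 34.3% of all genes tested. The exceptions were Kcnj2 (adjusted p = 0.0984) and Kcnq1 (adjusted p = 0.142, both from edgeR). The main change came between P1 and 4 weeks, when the Kv4 genes, Kcnj3 and both HCN genes rose while the delayed rectifier genes did not pass the test. A later decline was called between 14 weeks and 1.5 years in Kcnd2, Kcnj3, Hcn2 and Hcn4. Between 4 and 14 weeks, and between 14 weeks and 1 year, edgeR called no change in any of the 8. At 1.5 years Kcnh2 stood below its level at P1, and Kcnj3 and Hcn2 above theirs. Kcnd2 was called higher too, but its ranges at P1 and 1.5 years overlapped.

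**Figure D1:**
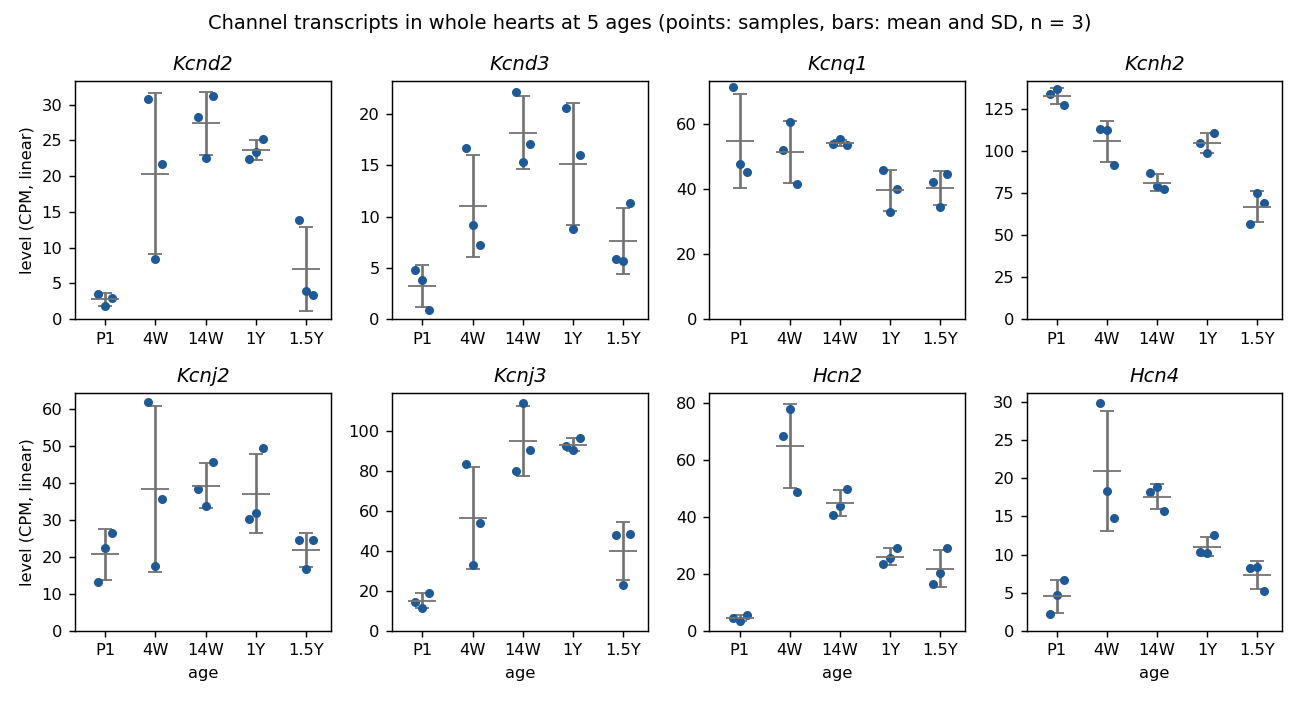
Level of each channel gene (CPM, linear axis from 0) in the 3 whole heart samples of each age, with mean and SD. Hcn2 went from at most 5.71 CPM at P1 to at least 48.7 at 4 weeks, whereas Kcnh2 was highest at P1 and lowest at 1.5 years.

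The Kv4 genes were the lowest of the set at birth. Kcnd2 was at 3.48, 1.79 and 3.00 CPM in the 3 hearts of P1 and at 30.8, 8.46 and 21.7 CPM at 4 weeks. It stayed between 22.4 and 31.3 CPM in all hearts of 14 weeks and 1 year, and the hearts of 1.5 years held 13.8, 3.94 and 3.39 CPM. Every heart of 4 weeks was thus above every heart of P1, and every heart of 1.5 years below every heart of 14 weeks. The ranges of P1 and 1.5 years overlapped. The rise from P1 to 4 weeks was 2.88 ± 0.51 on the log2 scale (SE, n = 3 per age, adjusted p = 0.000728 by edgeR). The later fall from 14 weeks to 1.5 years was -1.96 ± 0.50 (adjusted p = 0.0162 by edgeR). That fall missed the threshold without heart 3 of 14 weeks (adjusted p = 0.0574), heart 2 of 1.5 years (adjusted p = 0.0656) or heart 3 of 1.5 years (adjusted p = 0.0679), with log2 changes of -1.85, -1.67 and -1.62. Between P1 and 1.5 years the difference of 1.35 passed narrowly (adjusted p = 0.0454) and was lost in 11 of the 15 fits that left out 1 heart, falling to 0.41 without heart 1 of 1.5 years, and in 13 of all 26 alternative fits.

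Kcnd3 moved the same way with more spread. Its levels were 4.82, 3.86 and 0.89 CPM at P1, 16.7, 9.15 and 7.28 at 4 weeks and 22.1, 15.3 and 17.1 at 14 weeks. The hearts of 1 year held 20.6, 8.82 and 15.96 CPM and those of 1.5 years 5.87, 5.66 and 11.3. The ages P1 and 4 weeks did not overlap, nor did 14 weeks and 1.5 years. The rise to 4 weeks was 1.79 ± 0.52 on the log2 scale (adjusted p = 0.0222 by edgeR). It missed the threshold without heart 1 of 4 weeks (adjusted p = 0.104), heart 2 of P1 (adjusted p = 0.0509) or heart 3 of P1 (adjusted p = 0.0641), with log2 changes of 1.36, 1.94 and 1.34, and also with library size only (adjusted p = 0.0785) or only those 2 ages fitted (adjusted p = 0.0779). The difference of -1.26 ± 0.51 between 1.5 years and 14 weeks did not pass (adjusted p = 0.116). Kcnip2, the accessory subunit KChIP2 that brings Kv4 channels to the membrane, rose with them from 77.0 ± 13.1 CPM at P1 to 205 ± 49.1 at 4 weeks (SD, n = 3), a log2 change of 1.42 ± 0.17 (adjusted p = 1.68e-05 by edgeR).

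The delayed rectifier genes did not share the rise. Kcnh2, the most abundant of the 8 at birth, was at 134, 137 and 127 CPM at P1 and at 113, 112 and 91.4 at 4 weeks. It was at 86.8, 79.0 and 77.2 CPM at 14 weeks, at 104, 98.5 and 111 at 1 year and at 56.7, 74.7 and 69.3 at 1.5 years. The hearts of 4 weeks were all below those of P1, but the difference of -0.33 ± 0.14 did not pass by edgeR (adjusted p = 0.115) and did by DESeq2 (adjusted p = 0.0361). From P1 to 1.5 years Kcnh2 fell by 0.99 on the log2 scale (SE 0.14, adjusted p = 4.81e-05 by edgeR) and was called in all 26 alternative fits.

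Kcnq1 held the steadiest level, with 71.3, 47.8 and 45.4 CPM at P1 and 51.9, 60.7 and 41.5 at 4 weeks. The 14-week hearts held 53.9, 55.4 and 53.6 CPM, those of 1 year 45.9, 33.0 and 39.9, and those of 1.5 years 42.2, 34.5 and 44.6. P1 and 4 weeks overlapped, with a log2 difference of -0.09 ± 0.20 (adjusted p = 0.811 by edgeR). Every heart of 1 year and of 1.5 years was below every heart of 14 weeks. Those of 1.5 years were also all below those of P1. By edgeR these differences did not pass (adjusted p = 0.313 and 0.173 against 14 weeks, 0.101 against P1). No comparison of Kcnq1 between ages passed in the main fit. Scaled by library size only, Kcnq1 was called lower at 4 weeks than at P1 (log2 change -0.61, adjusted p = 0.0301). The same held at 1.5 years against P1 (-1.04, adjusted p = 0.000524). Kcne1, the small subunit that joins Kcnq1 in the slow current, fell in the main fit. It went from 112 ± 32.8 CPM at P1 to 33.0 ± 18.0 at 4 weeks and 4.12 ± 1.59 at 14 weeks (SD, n = 3), with log2 changes of -1.76 ± 0.50 (adjusted p = 0.0206 by edgeR) and -3.01 ± 0.53 (adjusted p = 0.00857). The antisense RNA Kcnq1ot1, which starts inside Kcnq1, fell from 12.8 ± 2.15 to 2.91 ± 1.44 CPM between P1 and 4 weeks (log2 change -2.14 ± 0.54, adjusted p = 0.0102).

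Of the inward rectifier genes, only Kcnj3 passed a test. It was at 14.5, 11.5 and 18.9 CPM at P1, at 83.4, 32.7 and 53.6 at 4 weeks and at 79.8, 114 and 90.4 at 14 weeks. Hearts of 1 year held 92.5, 90.1 and 96.3 CPM and those of 1.5 years 47.7, 23.1 and 48.3. Neither P1 and 4 weeks nor 14 weeks and 1.5 years overlapped. The rise to 4 weeks was 1.92 ± 0.32 on the log2 scale (adjusted p = 0.000365 by edgeR). The later fall was -1.25 ± 0.31 (adjusted p = 0.0147), and it missed the threshold without heart 2 of 14 weeks (adjusted p = 0.0621, log2 change -1.10) or heart 2 of 1.5 years (adjusted p = 0.0571, log2 change -0.98). Kcnj5 (GIRK4), the partner of Kcnj3 in the same channel, was at 51.7 ± 10.2 CPM at P1 and 73.7 ± 14.9 at 4 weeks, a difference that did not pass (adjusted p = 0.0696). It fell from 79.3 ± 10.6 CPM at 14 weeks to 40.0 ± 3.98 at 1.5 years (log2 change -0.99 ± 0.19, adjusted p = 0.00326).

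Kcnj2 varied widely among the hearts of 4 weeks. It was at 13.1, 22.2 and 26.4 CPM at P1, at 61.8, 17.5 and 35.5 at 4 weeks and at 38.2, 33.7 and 45.6 at 14 weeks. The 1-year hearts held 30.1, 31.7 and 49.4 CPM and the 1.5-year hearts 24.5, 16.6 and 24.4. Every heart of 1.5 years was below every heart of 14 weeks, but the log2 difference of -0.84 ± 0.36 did not pass (adjusted p = 0.14 by edgeR). Heart 2 of 4 weeks lay within the range of P1, and the log2 difference of 0.89 ± 0.36 did not pass (adjusted p = 0.103 by edgeR). Without that heart it was 1.24 and passed (adjusted p = 0.0104). The same heart had the lowest Kcnd2 and Kcnj3 of its age and the highest summed atrial markers, 510.8 CPM against 130.9 and 148.9. It also had the lowest share of counts in genes of at least 4000 bases (48.62% against 53.88% and 57.27%), the lowest mitochondrial share (14.88% against 20.11% and 26.75%) and the highest summed red cell markers (1346 CPM against 397.2 and 703.8). The part of these in the result was not tested. Kcnj12 (Kir2.2), which can join Kcnj2 in IK1 channels, did rise, from 15.2 ± 0.79 to 34.6 ± 3.95 CPM (log2 change 1.19 ± 0.21, adjusted p = 0.000768 by edgeR), and fell to 16.4 ± 1.75 at 1.5 years from 32.5 ± 1.58 at 14 weeks (log2 change -0.98 ± 0.21, adjusted p = 0.00679).

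The pacemaker channel genes had their highest means at 4 weeks, though the difference from 14 weeks did not pass. Hcn2 was at 4.47, 3.44 and 5.71 CPM at P1 and at 68.2, 77.8 and 48.7 at 4 weeks, the largest rise of the set at 3.84 ± 0.27 on the log2 scale (adjusted p = 4.78e-08 by edgeR). It was at 40.6, 43.9 and 49.6 CPM at 14 weeks, 23.4, 25.7 and 29.0 at 1 year and 16.2, 20.3 and 28.9 at 1.5 years. Every heart of 1 year and of 1.5 years was below every heart of 14 weeks. The difference between 1 year and 14 weeks was -0.78 ± 0.24 and did not pass by edgeR (adjusted p = 0.128), but it did with DESeq2 (adjusted p = 0.0495) and when only those 2 ages were fitted (adjusted p = 0.0107). The difference between 1.5 years and 14 weeks was -1.03 ± 0.24 (adjusted p = 0.0101), and it was called in all 26 alternative fits.

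Hcn4 followed at lower levels, with 2.25, 4.65 and 6.64 CPM at P1, 29.9, 18.3 and 14.8 at 4 weeks and 18.2, 18.8 and 15.8 at 14 weeks. It was at 10.4, 10.3 and 12.5 CPM at 1 year and at 8.26, 8.44 and 5.22 at 1.5 years. Here too P1 lay wholly below 4 weeks and 1.5 years wholly below 14 weeks, but 1.5 years overlapped P1. The rise was 2.22 ± 0.37 on the log2 scale (adjusted p = 0.000363 by edgeR) and the fall between 14 weeks and 1.5 years -1.27 ± 0.36 (adjusted p = 0.0275). The fall missed the threshold without heart 1, 2 or 3 of 14 weeks or heart 3 of 1.5 years (adjusted p = 0.0782, 0.0801, 0.061 and 0.107, log2 changes -1.24, -1.22, -1.34 and -1.08). The related Hcn3 stayed at a mean of at most 0.567 CPM at any age. Of 4 sinus node markers, Smoc2 was called higher at 4 weeks than at P1 (2.64 ± 0.20 on the log2 scale) and Tbx18 lower (-2.43 ± 0.45), while Tbx3 and Shox2 did not pass, and the median of the 4 was -0.75. Their sum was 40.36 to 54.92 CPM at P1 and 109.3 to 154.9 at 4 weeks in hearts, but 339 to 2700 in sorted fibroblasts, and their part in the Hcn4 values was not tested.

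Set by comparison, 5 of the 8 channel genes rose from P1 to 4 weeks and none fell, against 18.2% of all genes called (12.1% higher). The median log2 change of the 8 was 1.86, beside -0.09 over all genes tested. Over the same interval 7 of 10 cardiomyocyte markers were called higher, with a median of 0.84, and their part in the rise was not tested. With library size as the only scaling, under which the median of all genes moved to -0.60, 4 rose and 2 fell (Kcnq1 and Kcnh2). From 4 to 14 weeks edgeR and DESeq2 each called 0 of the 8 (3 at an unadjusted p under 0.05, with 1.61% of all genes called by edgeR), with log2 differences from -0.54 in Hcn2 to 0.74 in Kcnj3. From 14 weeks to 1 year edgeR called 0 of the 8 (3 at an unadjusted p under 0.05, with 0.972% of all genes called) and DESeq2 1 (Hcn2), with log2 differences from -0.78 in Hcn2 to 0.37 in Kcnh2. Between 1.5 years and 14 weeks 4 of the 8 were lower and none higher, against 12.8% of all genes called (7.86% lower), and the median of the 8 was -1.14 beside -0.02 over all genes. Between 1.5 years and P1, 3 were higher and 1 lower, against 31.8% called (15.6% higher and 16.3% lower), a split of 2 and 2 with library size only. Kcnj3 was higher at 1.5 years than at P1 by 1.41 ± 0.31 on the log2 scale (adjusted p = 0.00248) and Hcn2 by 2.26 ± 0.25 (adjusted p = 4.15e-06).

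**Figure D2:**
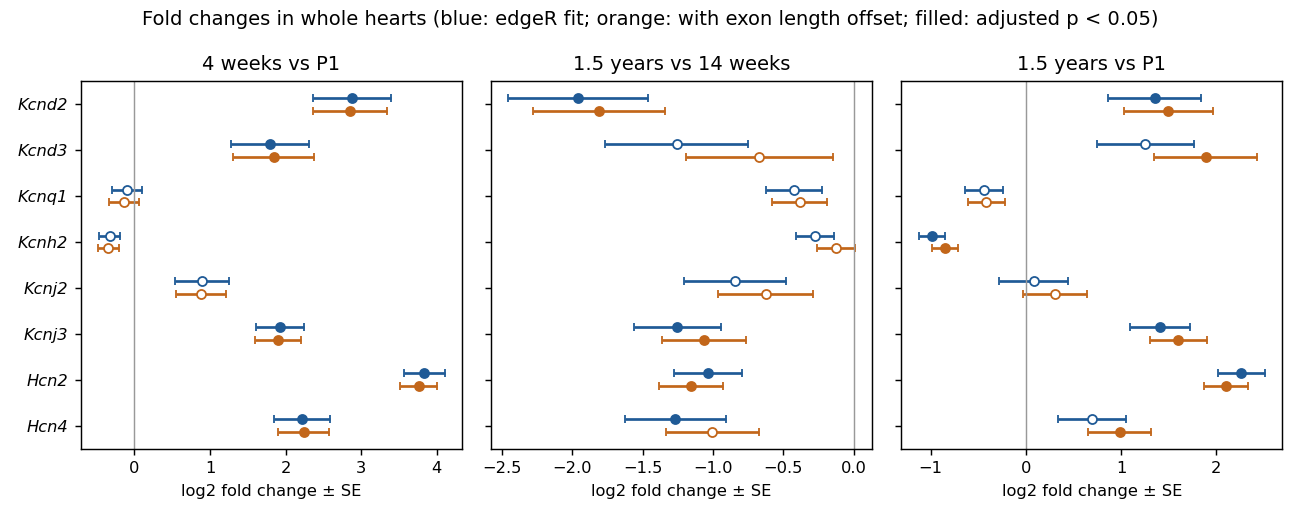
Log2 fold change with SE of each channel gene in whole hearts for 3 comparisons of ages, from the edgeR fit (blue) and from the same fit with an offset for exon length (orange). Filled points passed an adjusted p under 0.05, and in the right-hand panel Kcnd3 and Hcn4 are filled only with the offset.

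Because long genes took a smaller share of the counts at 1.5 years, each change was set against genes of like exon length. Over 13153 genes with a mean of at least 1 CPM, exon length and the log2 difference between 1.5 years and 14 weeks had a Spearman correlation of -0.51. This is a correlation across genes, and genes are no independent replicates. The median difference was 0.82 for genes under 1000 bases and -0.67 for those of at least 10000. Among genes of 4000 to 6000 bases the median was -0.16, 10.1% were called lower and the 10th percentile was -0.89. Kcnd2 at -1.96 and Kcnj3 at -1.25 were below that value, whereas Kcnj2 at -0.84, Kcnq1 at -0.43 and Kcnh2 at -0.28 were within the range. Among genes of 6000 to 10000 bases, with a median of -0.39, 18% were called lower and the 10th percentile was -1.15, and Hcn4 at -1.27 and Kcnd3 at -1.26 were just below it. Hcn2, the shortest of the set, fell by 1.03 where genes of 3000 to 4000 bases had a median of 0.06.

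With an offset for exon length in the fit, 3 of the 8 stayed lower at 1.5 years than at 14 weeks, against 3.68% of all genes called lower. These were Kcnd2 (-1.81 ± 0.47, adjusted p = 0.029), Kcnj3 (-1.06 ± 0.30, adjusted p = 0.0411) and Hcn2 (-1.16 ± 0.23, adjusted p = 0.00636, edgeR). Hcn4, at -1.004 ± 0.328 beside -1.27 without the offset, no longer passed (adjusted p = 0.0766), and the difference in Kcnd3 moved from -1.26 to -0.67 ± 0.52. Between 1.5 years and P1 the offset raised Kcnd3 to 1.89 ± 0.54 (adjusted p = 0.0143) and Hcn4 to 0.98 ± 0.33 (adjusted p = 0.0337), so that 6 of the 8 passed against 28% of all genes. The rise from P1 to 4 weeks moved little with it, by at most 0.08 in any of the 8, and the correlation with length across genes was -0.11 there.

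**Figure D3:**
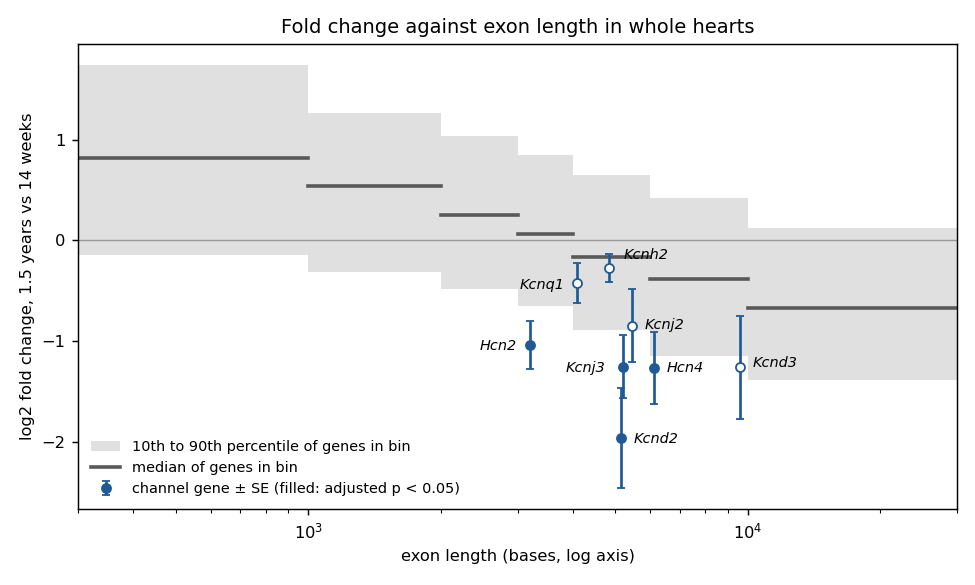
Log2 fold change between 1.5 years and 14 weeks in whole hearts (vertical) against exon length in bases (horizontal, log axis), with the median (line) and the 10th to 90th percentile (shading) of all genes in each length bin and the 8 channel genes with SE. Hcn2, Kcnd2, Kcnj3, Hcn4 and Kcnd3 lie below the shading of their bins, and Kcnh2, Kcnq1 and Kcnj2 inside it.

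Levels were compared between genes per kilobase of exon. At P1 Kcnh2 led with a mean of 27.4 CPM per kb, followed by Kcnq1 at 13.4, Kcnj2 at 3.78, Kcnj3 at 2.87, Hcn2 at 1.42, Hcn4 at 0.737, Kcnd2 at 0.535 and Kcnd3 at 0.333. The sample ranges of Kcnj2 and Kcnj3 overlapped, as did each neighbouring pair from Hcn2 down. At 4 weeks Hcn2, at 20.3 CPM per kb, overlapped Kcnh2 at 21.8 and lay above Kcnq1 at 12.6. At 14 weeks Kcnj3 at 18.2 CPM per kb and Kcnh2 at 16.7 overlapped at the top, and their order turned when the longest transcript was used in place of all exons. Kcnd3 had the lowest mean at all 5 ages, and with the longest transcript Hcn4 took its place at 1 year. At 1 year Kcnh2 led alone at 21.6 CPM per kb, above Kcnj3 at 17.8, and at 1.5 years at 13.8, above Kcnq1 at 9.88.

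**Figure D4:**
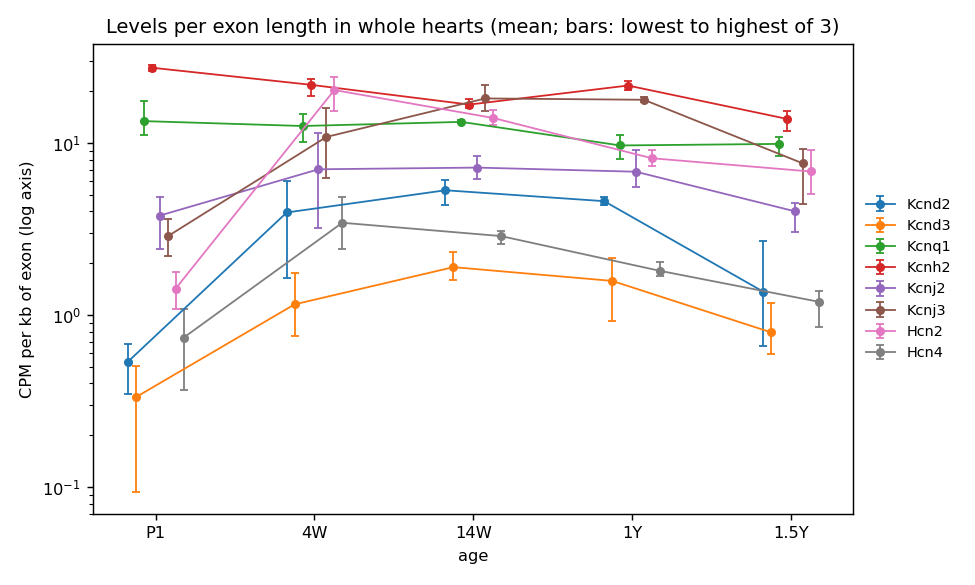
Mean level per kb of exon (log axis) of the 8 channel genes in whole hearts at each age, with bars from the lowest to the highest of 3 samples. Hcn2 moved from 1.42 CPM per kb at P1 to 20.3 at 4 weeks, while Kcnh2 stayed between 13.8 and 27.4.

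Ratios within samples show how paired genes shifted. The ratio of Hcn2 to Hcn4 per kb was 3.81, 1.42 and 1.65 at P1 and 4.37, 8.12 and 6.28 at 4 weeks. That of Kcnj3 to Kcnj2 was 1.15, 0.538 and 0.747 at P1 and 1.41, 1.95 and 1.58 at 4 weeks. Neither pair of ages overlapped, but an exact two-sided permutation test of 3 samples against 3 gave p = 0.1 for each, the smallest it allows, and 0.2 after adjustment over the 6 ratios tested. The ratio of Kcnd2 to Kcnd3 overlapped between P1 and 4 weeks, with 0.866 to 6.26 against 1.72 to 5.54.

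Correlations across the 15 hearts are given as a description, the samples sharing their ages and libraries. Kcnd2 and Kcnj3 had a Pearson r of 0.92 and Hcn2 and Hcn4 of 0.87 on log2 CPM. Kcnj2, which passed no test between ages, had an r of 0.77 with Kcnd2, 0.76 with Kcnj3 and 0.72 with Hcn4, beside 0.74 between Kcnd2 and Kcnd3. Kcnq1 had an r between -0.17 and 0.32 with each of the other 7, and Kcnh2 between -0.42 and 0.32. Among the 12335 protein-coding genes with a mean of at least 1 CPM, those most like Kcnd2 were Psme4 (r = 0.97) and Pcnt (0.958), and those most like Hcn2 were Itga7 (0.965) and Wfs1 (0.964). Kcnj3 was most like mt-Nd4 (0.956) and mt-Nd2 (0.952), genes of the mitochondrial genome, whose share of counts was 10.81% to 13.67% at P1 and 27.67% to 34.47% at 14 weeks. Hcn4 was most like Rap1gap2 (0.946) and Nfix (0.944), and Kcnh2 like Cttnbp2 (0.926). For Kcnj2 they were Atrnl1 (0.919) and Pde3a (0.909), for Kcnd3 Abcb1a (0.917) and Gaa (0.894), and for Kcnq1 Atg101 (0.847) and Mtmr14 (0.845).

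Other channel genes of the heart are set against the same shares of all genes, 18.2% called between P1 and 4 weeks (12.1% higher) and 12.8% between 14 weeks and 1.5 years (7.86% lower). For genes outside the 8, falls between 14 weeks and 1.5 years are given without correction for exon length. In that interval 10.1% of genes of 4000 to 6000 bases and 30.6% of those of at least 10000 were called lower. Of 12 further cardiac potassium channel genes, 5 rose from P1 to 4 weeks and none fell, with a median log2 change of 0.58. Kcnk3, a background channel, rose most, from 61.9 ± 17.4 to 381 ± 73.7 CPM (2.62 ± 0.20, adjusted p = 1.02e-07 by edgeR). Kcna5 (Kv1.5), a delayed rectifier of the mouse heart, rose by 1.60 ± 0.26, and Kcnj8 and Kcnj11, pore subunits of the ATP-sensitive channels, also passed. Between 14 weeks and 1.5 years 5 of these 12 fell, among them Kcna5 (-1.49 ± 0.26), the sulfonylurea receptor gene Abcc9 (-1.41 ± 0.23), Kcnj11 and Kcnk3. Of 13 partner subunits tested, 2 rose to 4 weeks (Kcnip2 and Kcnj12) and Kcne1 fell, and 3 fell from 14 weeks to 1.5 years, namely Kcnj5, Kcnj12 and Akap9, an anchoring protein of the slow current (-1.33 ± 0.31, adjusted p = 0.00959). Of 58 genes tested whose symbols begin with Kcn, 17 rose and 2 fell to 4 weeks and 10 fell with none higher at 1.5 years against 14 weeks. That group includes the 6 potassium channel genes of the set and the noncoding Kcnq1ot1. Among them Kcnv2, an electrically silent channel subunit, was at most 0.0103 CPM in every heart of P1 and at 3.97 ± 1.29 CPM at 4 weeks (adjusted p = 6.78e-07).

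Of the 11 sodium channel genes tested, 4 rose to 4 weeks and none fell, against 12.1% of all genes called higher. Scn4a rose by 2.75 ± 0.28 on the log2 scale. Scn4b, a beta subunit, was at 0.377 ± 0.502 CPM at P1, 3.05 ± 0.96 at 4 weeks and 78.0 ± 11.3 at 14 weeks, so that most of its rise came after 4 weeks (4.67 ± 0.62, adjusted p = 0.000938 by edgeR). Scn4a was lower at 1.5 years than at 14 weeks, without correction for exon length.

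Of 5 regulators tied to these genes in the literature, Thrb, a thyroid hormone receptor, rose from 2.06 ± 0.90 CPM at P1 to 15.6 ± 8.20 at 4 weeks (2.92 ± 0.51, adjusted p = 0.000549 by edgeR). Thra, the other receptor, fell by 0.55 on the log2 scale (adjusted p = 0.0225), from 185 ± 5.04 to 127 ± 8.95 CPM. Rest, a repressor of neuronal and fetal cardiac channel genes including the HCN genes, fell from 27.6 ± 4.61 to 12.4 ± 5.03 CPM (-1.16 ± 0.35, adjusted p = 0.0289) and was lower again at 1.5 years than at 14 weeks (-1.63 ± 0.36, adjusted p = 0.00705). The later fall of Rest was not corrected for exon length. The iroquois factors Irx3 and Irx5 did not pass in either interval.

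In sorted fibroblasts the 8 genes held few reads, with 40 of the 96 values under 10 counts. Kcnh2 was the exception, with at least 63 counts in every sample. Kcnd2 had at most 6 counts in any of the 12 samples and was not tested, and Kcnj3 had at most 3 counts in 9 of them. Over the 5 ages, the mean level of each gene was higher in whole hearts, by between 4.40 in Hcn2 and 10.48 in Kcnd2 on the log2 scale, and all 8 passed (edgeR over all 27 samples), against 56.8% of all genes called (29.1% higher). Means, scaled over all 27 samples together, were 109 CPM against 3.83 for Kcnh2 and 66.2 against 0.0752 for Kcnj3. The preparation differs with the tissue, so the 2 cannot be told apart. The fit treated hearts and fibroblasts as independent, though by the paper's account they came from the same animals.

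Kcnh2, Hcn4 and Kcnd3 had their highest mean fibroblast levels at P1. Hcn2 had its highest at 1.5 years, with a mean of 1.04 CPM per kb against 0.384 at P1, a difference that did not pass (adjusted p = 0.62 by edgeR). Kcnh2 was at 7.04, 16.8 and 20.4 CPM in fibroblasts of P1, at 1.49, 3.21 and 1.35 at 4 weeks and at 2.42 and 2.21 at 1.5 years. No sample of 4 weeks or of 1.5 years reached the lowest of P1. From P1 to 4 weeks it fell by 2.87 on the log2 scale (SE 0.62, adjusted p = 0.00677 by edgeR). From P1 to 1.5 years it was lower by -2.67 ± 0.72 (adjusted p = 0.0228). Hcn4 was at 16.5, 3.86 and 11.8 CPM at P1, where whole hearts held 2.25 to 6.64, each tissue being scaled separately. It had no count in either fibroblast sample of 1.5 years. Against a floor of 3 counts per library, Hcn4 at 1.5 years was at least 225-fold below the mean of P1 (adjusted p = 0.044 by edgeR). Kcnd3 was at 2.18, 1.38 and 1.70 CPM at P1 and had at most 1 count in each sample of 4 weeks. By the same floor this was at least 43.4-fold below the mean of P1 (adjusted p = 0.0379 by edgeR). Later, Kcnd3 was at 0 and 0.575 CPM at 14 weeks, 0.888 and 1.42 at 1 year and 0.16 and 0.12 at 1.5 years. The range of 1 year thus overlapped that of P1.

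Thus 2 of the 7 genes tested fell to 4 weeks, Kcnd3 and Kcnh2, against 15.5% of all genes called (6.2% lower), and 2 were lower at 1.5 years than at P1, Kcnh2 and Hcn4, against 16.3% (6.46% lower). The call of Kcnd3 was lost in 8 of the 12 fits that left out 1 sample. At 1.5 years none of the 7 passed without either sample of 1.5 years or without replicate 2 or 3 of P1, and only Kcnh2 did without replicate 1 of P1. The fibroblasts of P1 also held more cardiomyocyte transcripts, with a summed level of 674.5 to 771 CPM for the 10 markers against 14.88 to 183.5 at the later ages, and their part in these falls was not tested. In whole hearts of P1 the same sum was at least 35326. The change from P1 to 4 weeks differed between whole hearts and fibroblasts in 4 of the 8 genes, Kcnd3, Kcnh2, Hcn2 and Hcn4, against 7.14% of all genes called (3.96% with the more positive change in hearts), and in each of the 4 the change was more positive in hearts.

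**Figure D5:**
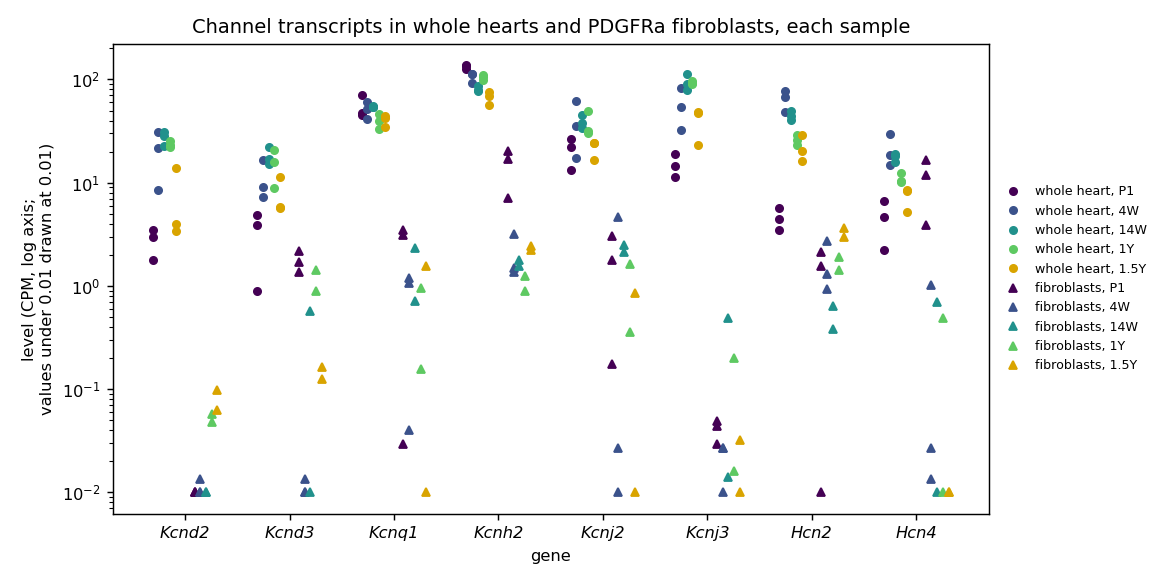
Level of each channel gene (CPM, log axis, values under 0.01 drawn at 0.01) in every whole heart sample (circles) and fibroblast sample (triangles), coloured by age and scaled within each tissue. Apart from the fibroblasts of P1 for Hcn4, which reached 16.5 CPM, 4 samples for Kcnd3 and 1 for Hcn2, the fibroblast samples lie below every heart of the same gene.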

How the data were processed

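RNA from whole hearts and sorted PDGFRα cardiac fibroblasts was sequenced as single-end reads of 65 bases. The authors mapped them to mm10 with STAR 2.5.3a and counted reads per gene with its GeneCounts mode. The deposited values are these raw counts, 1 table per tissue, with no normalization. Groups of the 27 samples follow the labels (tissue and age). The labels give 2 fibroblast samples at each age from 14 weeks on, where the methods speak of 3 sets.

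Each tissue was fitted with edgeR 4.0.16 in R 4.3.3 (filterByExpr, TMM, quasi-likelihood F test, age as the only factor), and tissues were compared in 1 fit of all samples on 20650 genes. Each SE is the size of the log2 fold change over the square root of F. CPM values use TMM-scaled libraries within a tissue, except the means that compare the tissues, which were scaled over all 27 samples. Where an age held no more than 3 counts of a gene in each sample, that floor was used for it, which covers counting error only. Log2 CPM for correlations used a prior count of 2. The length offset was a lowess trend (span 0.3) of each sample's deviation on log2 exon length from GENCODE M21. Exact permutation tests of ratios were run in scipy 1.17.1. The fits were tested on simulated counts. None of the 24 pairs of samples of 1 tissue and age were identical.

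The members and gene lists were chosen with earlier results of these data known. All 8 members are named. Partner subunits had to reach 0.5 CPM at 1 age, and of the other lists at most the 3 largest called rises and falls with 1 CPM were named, beside Kcnj8, Kcnj11, Hcn3 and later steps of named genes, chosen after their values were seen. Some genes that this rule names are not reported here. The regulator list held Irx3, Irx5, Thra, Thrb and Rest. The cell type markers were fixed lists, including endothelial, leukocyte, glial, fat and red cell genes. Alternatives were DESeq2 1.42.0, other scaling, other filters on low counts, the length offset, the replicate block, counts without the mitochondrial genome, single samples left out, and only the 2 ages compared.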

Additional observations from a re-analysis of the deposited data

Results flagged for a closer look

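In 4 of the 8 channel genes the change from P1 to 4 weeks differed between whole hearts and fibroblasts by a test of the difference itself (edgeR over all 27 samples, adjusted p throughout). For Kcnh2 the log2 change in hearts minus that in fibroblasts was 2.54 ± 0.41 (SE, adjusted p = 0.000308). Its own change was -0.33 in hearts, which did not pass, and -2.87 in fibroblasts, which did. For Hcn2 the difference was 3.40 ± 0.93 (adjusted p = 0.0254), with a rise of 3.84 in hearts and a change of 0.44 in fibroblasts that did not pass (adjusted p = 0.909). That call was lost in 7 of the 27 fits that left out 1 sample, with an adjusted p of up to 0.0811. For Hcn4 it was 7.13 ± 1.67 (adjusted p = 0.00919), and it ranged from 6.57 to 11.14 with 1 sample left out. Of the 12 fibroblast samples 6 held at most 3 counts of it. Hcn4 rose in hearts, while in fibroblasts each sample of 4 weeks lay below each of P1, a change that did not pass on its own (adjusted p = 0.147). For Kcnd3 the fitted difference was 9.83 ± 1.41 (adjusted p = 8.01e-05). Its size depends on the prior count, because the fibroblasts of 4 weeks held at most 1 count each. No test for outlying samples was made, since no group has more than 3 samples.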

How the results depend on the processing

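The rise from P1 to 4 weeks in whole hearts was called in all 26 alternative fits for Kcnd2, Kcnj3, Hcn2 and Hcn4. With 1 sample left out, the number of channel genes called in whole hearts ranged from 4 to 6 at that step (5 with all samples), from 2 to 4 at 1.5 years against 14 weeks (4), from 3 to 4 at 1.5 years against P1 (4) and from 6 to 7 over all ages (6), and was 0 in every such fit at both steps between. In fibroblasts it ranged from 1 to 2 at 4 weeks and from 0 to 2 at 1.5 years against P1 (2 each). It was 8 throughout for the difference between tissues and ranged from 3 to 4 for the change that differed between them. Between 4 and 14 weeks library size only gave 1 call (Kcnh2, adjusted p = 0.0375). Between 14 weeks and 1 year DESeq2 gave 1 (Hcn2), as did fitting only those ages. A filter of at least 10 counts in every sample left only Kcnh2 to test in fibroblasts and in the fit of both tissues, and so gave 1 call in each of those 4 comparisons. Library size only moved the median of all genes from -0.09 to -0.60 at 4 weeks against P1 and from -0.15 to -0.75 at 1.5 years against P1, and the cause was not tested. Alternatives were computed for all 8 genes in hearts of 4 weeks against P1 and of 1.5 years against 14 weeks and P1, and elsewhere for the changes whose values are given. Among these the sign turned in 4, none of them called in the main fit. With 1 sample left out, Hcn4 in hearts between 4 and 14 weeks ranged from -0.454 to 0.084 and Hcn2 in fibroblasts at 4 weeks against P1 from -0.15 to 1.08. Kcnq1 at 4 weeks against P1 ranged from -0.23 to 0.14 with 1 sample left out. With library size only it was -0.61 and was called (adjusted p = 0.0301). Kcnj2 at 1.5 years against P1 was 0.08, ranged from -0.10 to 0.35 with 1 sample left out, and was -0.53 with library size only. Leaving out heart 2 of 4 weeks and heart 2 of 1.5 years together, chosen after seeing the data, gave 6 calls at 4 weeks (Kcnj2 was added) and 3 for the change that differed between tissues (Hcn2 was lost).

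The number of all genes called moved more. Between 1.5 years and 14 weeks it was 2298, and it ranged from 1013 with the block and the length offset to 3399 with DESeq2. Between 14 weeks and 1 year it was 175, and it ranged from 7 without heart 1 of 1 year to 1458 with only those ages fitted. Between 4 and 14 weeks it was 289, and it ranged from 77 without heart 2 of 14 weeks to 819 with DESeq2. For fibroblasts of 1.5 years against P1 it was 3061, and it fell to 1886 without replicate 5 of 1.5 years. For the change that differed between tissues it was 1475, and DESeq2 gave 2794.

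Within a tissue, samples of different ages with the same replicate number did not deviate together. Their r ran from -0.13 to 0.22 in 30 pairs of hearts, 1 of them over 0.1, and from -0.05 to 0.13 in 7 pairs of fibroblasts, and 3 of 15 hearts and 3 of 12 fibroblast samples correlated best with a sample of their own number. The numbers were therefore not taken as a pairing between ages. Heart and fibroblast samples of the same age were not examined for pairing. The main fit of both tissues treated them as independent. With the replicate block, alone or with the length offset, 1 channel gene was called in fibroblasts at 4 weeks against P1 (Kcnd3 was lost), and 5 differed in their change between tissues (Kcnj3 was added). In whole hearts the block alone changed no call of the 8, and it took the number of all genes called between 14 weeks and 1 year from 175 to 45. It could not be fitted for fibroblasts of 1.5 years against P1 or for the difference between tissues, where the groups share too few numbers.

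With 3 samples per age an exact permutation test cannot go below p = 0.1. Counts were not the limit in hearts, where the lowest of the 8 genes in any sample was 83 reads. In fibroblasts 40 of the 96 values were under 10 counts.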

Other observations

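Markers of other cell types moved in the same hearts, and their part in the channel gene values was not tested. From P1 to 4 weeks edgeR called 4 of 6 leukocyte markers higher (median log2 change 2.02), 3 of 7 endothelial markers higher (0.46) and 1 of 5 glial and neuronal markers higher (0.39), with none lower in these lists. Of 7 smooth muscle and pericyte markers 3 were higher and 3 lower, and of 6 fibroblast markers 2 were higher and 2 lower. Of 5 atrial markers 1 was lower (median -2.09), and of 3 ventricular markers 1 was higher and 1 lower. None of the 3 ventricular conduction markers, the 3 red cell markers or the single fat marker passed. Between 14 weeks and 1.5 years 3 of 10 cardiomyocyte markers were higher and 3 lower (median log2 change 0.08), 2 of 7 endothelial markers were higher and 1 lower, and 1 of 3 ventricular markers was higher. Further, 2 of 3 red cell markers, 2 of 6 fibroblast markers and 2 of 7 smooth muscle and pericyte markers were higher at 1.5 years, and none of the 5 atrial, 4 sinus node or 6 leukocyte markers passed.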
